A study of Mus musculus with 12 samples.

Results

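Sorted bone-marrow monocytes of mice lacking Nr4a3 were compared with those of wild-type mice before any culture, using 4 of the 12 libraries of the series. The KO group holds 2 libraries labelled as KO monocytes (genotype Nr4a3 KO) and the WT group 2 libraries labelled as WT monocytes. Both groups are on a C57BL/6 background, come from bone marrow and are labelled as undifferentiated, with no culture or cytokine named. The other 8 libraries are monocytes of both genotypes after culture in GM-CSF plus IL-4, for 1 day or for 2 days, with 2 libraries in each group. The labels give independent experiments for the replicates, and the dates in the deposited names put KO and WT replicate 1 in one experiment and KO and WT replicate 2 in the other. The labels do not say how the allele was made, how old the animals were, which markers the sort used or how many mice went into a library. The p-values below therefore measure the spread between libraries, which the main fit estimates jointly over all 12 libraries of the series. In all 4 monocyte libraries Xist had 0 reads and the Y-linked gene Ddx3y stood at 34.5 to 73.6 CPM (reads of a gene scaled to the TMM-adjusted library size, the unit of every level given below).

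NR4A3 belongs with NR4A1 and NR4A2 to a small family of orphan nuclear receptors whose genes respond within minutes to many stimuli, and whose proteins act as transcription factors without a known activating ligand. As monomers they bind a short sequence called the NBRE. In mice NR4A1 is needed for the nonclassical, patrolling monocytes, which arise from the classical Ly6C-high monocytes of the marrow. GM-CSF and IL-4 signal through JAK kinases and STAT5 or STAT6, and turn monocytes into dendritic cells in culture. A comparison of the sorted cells asks whether the genotypes already differ before these cytokines are added.

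In sorted monocytes no gene passed the test between genotypes. Among the genes described below, Traf1, Id3, Ier3 and Bhlhe40 stood higher in both KO libraries and the mitochondrial ribosomal RNAs lower, each without passing. The edgeR quasi-likelihood test over 14034 genes called 0 genes higher in KO (0%) and 0 lower (0%) at a Benjamini-Hochberg adjusted p of 0.05. At an unadjusted p under 0.05, 271 genes were higher in KO (1.93%) and 286 were lower (2.04%), together 3.97% of the genes tested. The median log2 fold change over all genes was 0. The smallest adjusted p in edgeR was 0.155, for Traf1. DESeq2 called 2 genes higher (Id3 and Ier3) and 1 lower (mt-Rnr2) on the same counts. A fit with the replicate number as a block on the 4 monocyte libraries alone called 2 higher (Socs3 and Atp11a) and 3 lower (mt-Rnr1, mt-Rnr2 and Clec2d). A block by experiment over all 12 libraries called 0 and 0.

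The precision of the comparison can be read from the intervals of the fit. Among 9483 genes with a mean of at least 5 CPM, the 95% interval of the KO over WT ratio lay wholly within 2-fold for 3922 (41.4%) and within 4-fold for 8802 (92.8%). The median half-width of that interval was 0.80 on the log2 scale. Where no call is reported below, a difference of the size of the interval cannot be told from none.

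**Figure D1:**
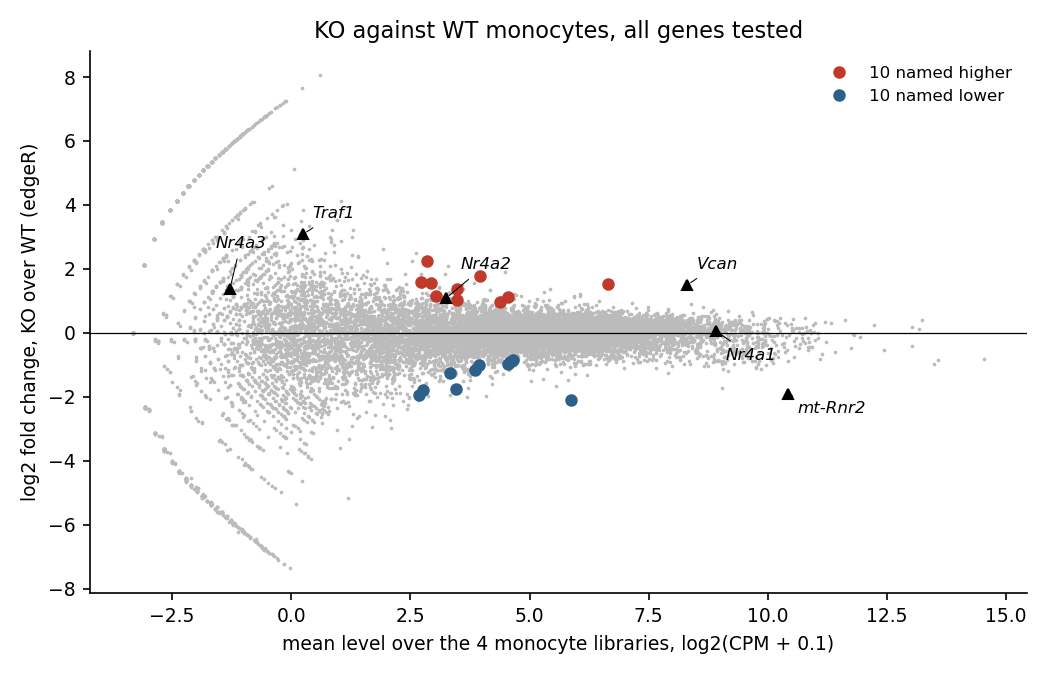
Each grey point is 1 of the 14034 genes tested, with its mean level over the 4 monocyte libraries as log2(CPM + 0.1) on the x axis and its edgeR log2 fold change of KO over WT on the y axis. The 10 named genes higher in KO (red) and the 10 lower (blue) lie at the edge of the cloud, none past the adjusted threshold, black triangles mark Nr4a1, Nr4a2, Nr4a3, Traf1, Vcan and mt-Rnr2, and the curved outer arcs are genes with no read in 1 group, whose fitted value depends on the prior count.

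The 4 libraries held 13764588 and 14431691 reads in genes for KO replicates 1 and 2, against 12961706 and 10687668 for WT replicates 1 and 2. WT replicate 2 stood apart from the other 3. It detected 12987 genes, against 14160 and 14356 in KO and 14481 in WT replicate 1, and 7.91% of its reads were unmapped, against 2.88% to 5.39% in the others. The number of genes that differed at least 2-fold was 130 of 9483 (1.37%) between KO 1 and WT 1 and 1781 (18.8%) between KO 2 and WT 2. It was 315 between the KO libraries and 2583 (27.2%) between the WT libraries. The WT libraries therefore differed from each other in more genes than either KO library differed from the WT library of its own experiment.

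**Figure D2:**
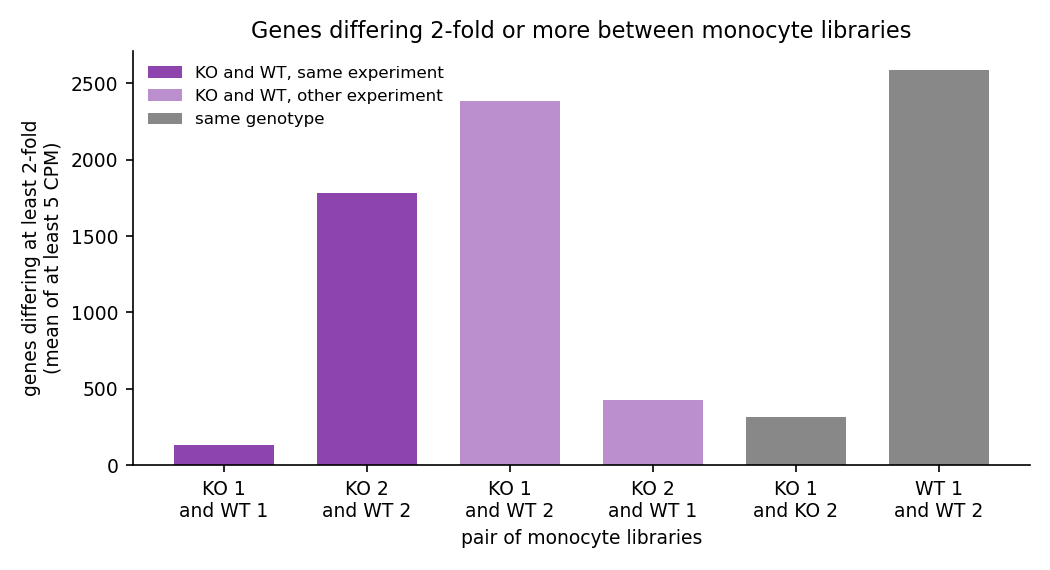
Bars give the number of genes, of 9483 with a mean of at least 5 CPM, that differed at least 2-fold between each pair of monocyte libraries (dark purple for KO and WT of the same experiment, light purple for KO and WT of different experiments, grey for the same genotype). The 3 pairs with WT 2 hold 1781 to 2583 genes and the 3 pairs without it 130 to 426.

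The ratios within an experiment varied with transcript length. With genes ranked by exon length and split into 4 bins of about equal size, in the bin of the shortest genes the median log2 ratio of KO 2 over WT 2 was -0.30, and in the bin of the longest it was 0.36. For KO 1 over WT 1 these medians were 0.04 and -0.06. Between WT 1 and WT 2 they were -0.55 and 0.62, and between KO 1 and KO 2 -0.23 and 0.23. Short genes were thus relatively high in replicate 2 of both genotypes, more so in WT. The part of length in the genotype values was not tested. Many results that WT replicate 2 touches are given below also without it, in edgeR fits that leave KO 1, KO 2 and WT 1 as the monocyte libraries.

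Nr4a3 itself (ENSMUSG00000028341.9, GRCm38 chromosome 4) was nearly unread in both genotypes before culture, so its counts do not check the genotype labels. KO libraries held 13 reads (0.928 CPM) and 0 reads, and WT libraries 4 reads (0.307 CPM) and 0 reads. A count of 0 allows up to 0.213 CPM in KO replicate 2 and 0.316 CPM in WT replicate 2. Counts per gene cannot place the KO reads within or outside the deletion. The labels can be set against Nr4a3 only in culture, where it stood at 39.0 and 19.3 CPM in KO day 2 libraries, against 1287 and 1358 CPM in WT day 2 libraries.

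Nr4a1, the receptor that nonclassical monocytes need, was the family member with the most reads. It stood at 703 and 277 CPM in KO libraries, against 825 and 111 CPM in WT libraries, a log2 fold change of 0.07 ± 0.76 (SE; interval -1.61 to 1.74; unadjusted p = 0.933, edgeR). The genotypes overlapped, and replicate 1 was above replicate 2 in each genotype. Nr4a2, the third receptor, stood at 21.4 and 4.25 CPM in KO libraries, against 11.95 CPM and 0 reads in WT libraries (log2 fold change 1.08 ± 1.32, unadjusted p = 0.431, edgeR). Without WT replicate 2 the log2 fold change of Nr4a1 was -0.75 and that of Nr4a2 0.10. Without WT replicate 1 it was 2.16 for Nr4a1, and WT was left with 0 reads of Nr4a2, so that its fitted value depends on the prior count. For both genes the spread between experiments was larger than the difference between genotypes.

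Among genes of at least 5 CPM the smallest p-values on the higher side belonged to Ier3, Bhlhe40, Pde4b and Tubb6. Ier3, an immediate early gene of the stress response, stood at 20.4 and 27.2 CPM in KO libraries, against 4.83 and 9.28 CPM in WT libraries. Its log2 fold change was 1.76 ± 0.36 (interval 0.96 to 2.57), with unadjusted p = 0.000571 and adjusted p = 0.998 in edgeR. Both KO libraries lay above both WT libraries, in each experiment by at least 2-fold. Ier3 was also called by DESeq2 at an adjusted p of 0.0434, within a range of 0.0047 to 1 over the 13 alternatives. Bhlhe40, a transcriptional repressor with a basic helix-loop-helix domain, stood at 19.1 and 12.6 CPM in KO libraries, against 6.59 and 5.69 CPM in WT libraries (1.36 ± 0.31). Pde4b, which degrades cyclic AMP, stood at 25.9 and 29.1 CPM in KO libraries, against 14.1 and 13.8 CPM in WT libraries (0.98 ± 0.23). The libraries of each genotype lay close together for Pde4b, and likewise for Tubb6, a beta-tubulin, with 32.9 and 30.8 CPM in KO and 15.0 and 14.0 CPM in WT (1.13 ± 0.27).

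Zfp36l1, Pop1, Dusp5, Lrp4, Gstcd and Atp11a complete the 10 genes on the higher side. Zfp36l1, which binds AU-rich elements and promotes mRNA decay, stood at 16.9 and 6.88 CPM in KO libraries, against 3.75 and 1.05 CPM in WT libraries (2.26 ± 0.59). Dusp5, a nuclear phosphatase of ERK, stood at 14.2 and 8.44 CPM in KO libraries, against 5.52 and 2.11 CPM in WT libraries (1.55 ± 0.45). For both genes replicate 1 was above replicate 2 in each genotype, and the genotypes did not overlap. Atp11a, a phospholipid flippase of the plasma membrane, stood at 165 and 132 CPM in KO libraries, against 77.4 and 25.0 CPM in WT libraries (1.53 ± 0.48). Its log2 fold change was 0.94 without WT replicate 2. Of the other 3 genes of the rule, Lrp4 gave 1.59 ± 0.47, Pop1, a protein of RNase P, 1.16 ± 0.31, and Gstcd 1.03 ± 0.31. The adjusted p in edgeR was 0.998 for each of these 10 genes.

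On the lower side, with mitochondrial genes set aside and described further on, the smallest p-values at 5 CPM or more were those of Zfp623, Zfp90 and Zfp266, which encode zinc-finger proteins, and of Clec2d. Zfp623 stood at 4.93 and 6.74 CPM in KO libraries, against 11.4 and 16.8 CPM in WT libraries (log2 fold change -1.27 ± 0.35). Zfp90 gave -1.16 ± 0.32 and Zfp266 -0.99 ± 0.30. These 3 zinc-finger genes were lower in both KO libraries than in both WT libraries. Clec2d, which in mice encodes a ligand of an inhibitory receptor on NK cells, stood at 19.6 and 24.3 CPM in KO libraries, against 34.5 and 156 CPM in WT libraries (-2.11 ± 0.64). Ly96, which encodes MD-2, the partner of the endotoxin receptor TLR4, stood at 4.79 and 5.11 CPM in KO libraries, against 8.51 and 25.0 CPM in WT libraries (-1.75 ± 0.55). Without WT replicate 2 the log2 fold change was -0.65 for Clec2d and -0.78 for Ly96, closer to 0 for both genes.

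The remaining lower genes were Hspb11, a subunit of the intraflagellar transport machinery (-1.80 ± 0.56, and -0.71 without WT replicate 2), Mier3 (-0.84 ± 0.27), and Orc4, of the origin recognition complex (-0.96 ± 0.31). Cgnl1, a protein of cell junctions, gave -1.95 ± 0.62, with -2.61 without WT replicate 2 and -0.56 without WT replicate 1. Lin37, of the complex that represses cell cycle genes, gave -0.91 ± 0.29. Each lay lower in both KO than in both WT libraries, which a choice by smallest p and shared direction favours. The adjusted p in edgeR was 0.998 for all 10, and their unadjusted p ran from 0.00417 for Zfp623 to 0.0100 for Lin37.

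**Figure D3:**
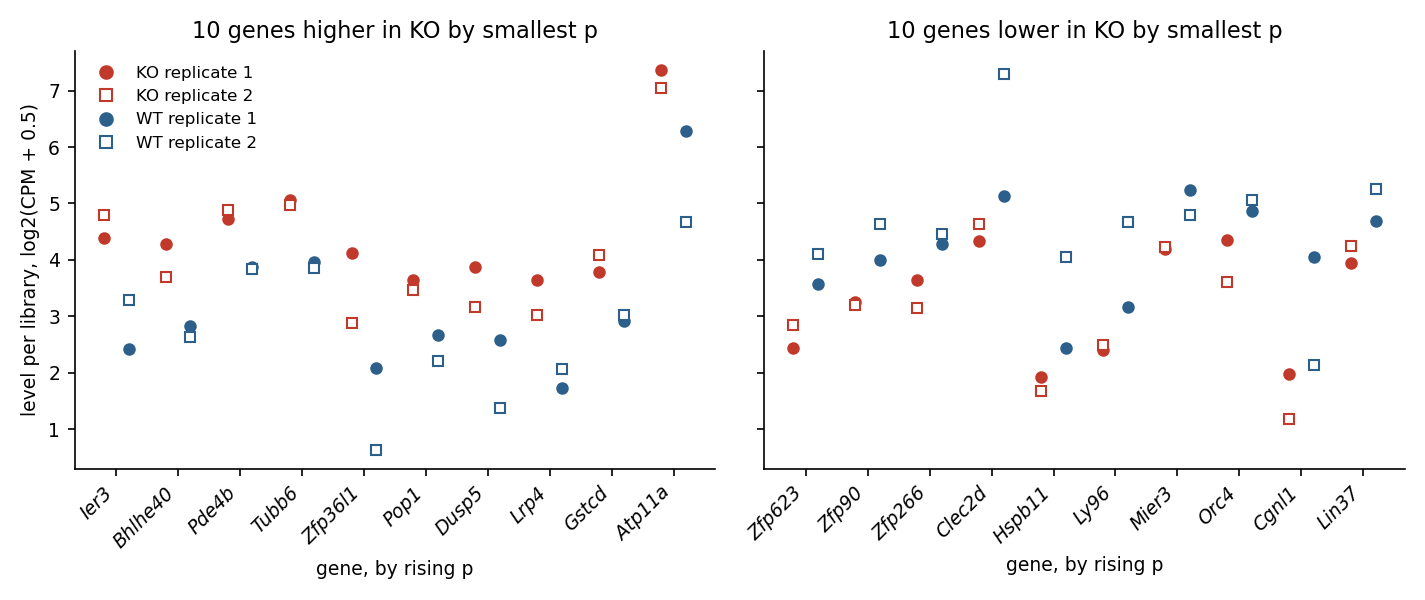
Points give the level of each gene in each monocyte library as log2(CPM + 0.5), KO in red left of WT in blue, filled circles for replicate 1 and open squares for replicate 2, with genes ordered by p. The KO and WT libraries do not overlap in any of the 20 genes, which a choice by smallest p and shared direction favours. Clec2d, Hspb11 and Ly96 show WT 2 far above the other 3 libraries.

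Over all genes, both KO libraries lay above both WT libraries for 1865 (13.3%) and below both for 1528 (10.9%). Genes at least 2-fold apart in the same direction in both experiments were rarer, with 19 higher in KO (0.2% of 9483) and 17 lower (0.179%), while 20 were 2-fold apart in opposite directions. This set, chosen after its values were seen, included Vcan on the higher side, which encodes the matrix proteoglycan versican of classical monocytes. Vcan stood at 507 and 429 CPM in KO libraries, against 175 and 157 CPM in WT libraries (1.5 ± 0.48, unadjusted p = 0.0104, edgeR). The ratio was alike in both experiments, at 1.53 and 1.45 on the log2 scale.

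A few genes of lower level had smaller p-values and fall outside the rule of 5 CPM. Traf1, an adaptor of TNF receptor signalling, held 30 and 25 reads (2.14 and 1.77 CPM) in KO libraries, against 3 and 2 reads (0.230 and 0.211 CPM) in WT libraries. Its log2 fold change of 3.08 ± 0.40 had the smallest adjusted p of the comparison, 0.155 in edgeR, within 0.000255 to 1 over the 13 alternatives. Id3, an inhibitor of basic helix-loop-helix factors, stood at 3.93 and 3.05 CPM in KO libraries, against 0.766 and 0.105 CPM in WT libraries (2.86 ± 0.57, unadjusted p = 0.000458, edgeR). DESeq2 called Id3 at an adjusted p of 0.0298, with a range of 0.000159 to 1 over the alternatives. Scd1, the stearoyl-CoA desaturase, held 10 and 14 reads in KO libraries and 0 in both WT libraries, so it was at least 6.41-fold higher in KO, taking 3 counts over the WT group as the floor.

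The receptors and feedback genes of the 2 culture cytokines were examined as a list of 20 genes. None passed the adjusted threshold, and 3 were higher in KO at an unadjusted p under 0.05 with none lower, beside 1.93% and 2.04% of all genes. Both KO libraries lay above both WT libraries for 9 of the 20, against 13.3% of all genes, and below both for 0, against 10.9%. The list's median log2 fold change was 0.33, beside 0 for all genes, with 0.10 in experiment 1, 0.62 in experiment 2 and 0.18 without WT replicate 2. Jak3, the kinase of the common gamma chain, stood at 40.9 and 36.9 CPM in KO libraries, against 18.7 and 16.5 CPM in WT libraries (1.15 ± 0.43, unadjusted p = 0.0234, edgeR). The gamma chain itself, Il2rg, stood at 31.7 and 48.6 CPM in KO libraries, against 22.9 and 22.1 CPM in WT libraries (0.83 ± 0.42).

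Socs3 and Cish, which encode feedback inhibitors of cytokine signalling, are the other members with an unadjusted p under 0.05. Socs3 stood at 45.5 and 25.2 CPM in KO libraries, against 11.3 and 7.70 CPM in WT libraries (1.89 ± 0.82, unadjusted p = 0.0425, edgeR). Cish stood at 1.43 and 2.41 CPM in KO libraries, against 1.07 and 0.211 CPM in WT libraries (1.48 ± 0.55, unadjusted p = 0.0223, edgeR). For Cish, WT replicate 1 came near the lower KO library, and its log2 fold change was 0.84 without WT replicate 2. Csf2rb, the beta chain of the GM-CSF receptor, stood at 488 and 521 CPM in KO libraries, against 391 and 190 CPM in WT libraries (0.79 ± 0.45), and gave 0.37 without WT replicate 2. Pim1, a kinase gene induced by STAT5, gave 0.91 ± 0.49 and 0.26 without that library. Stat6, the factor activated by IL-4, differed little, at 0.06 ± 0.26 (interval -0.51 to 0.62).

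The label of the sorted cells was set beside the levels of marker genes. Of 20 classical monocyte genes all passed the low-count filter, which used all 12 libraries, so passing it does not check the label. Their summed level was 41741 and 46798 CPM in KO libraries, against 44606 and 72609 CPM in WT libraries. Ly6c2, part of the Ly6C antigen, stood at 1413 and 1900 CPM in KO libraries, against 1177 and 2205 CPM in WT libraries. Csf1r, the receptor that monocytes need to survive, stood at 1163 and 1464 CPM in KO libraries, against 1177 and 853 CPM in WT libraries. Both genes overlapped between genotypes.

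As a list the classical monocyte genes did not separate the genotypes, with a median log2 fold change of -0.01 and 10 of 20 members above 0. Lyz2, lysozyme, stood at 15090 and 19232 CPM in KO libraries, against 17162 and 43582 CPM in WT libraries (-0.82 ± 0.92). Ccr2, the chemokine receptor through which these cells leave the marrow, stood at 1842 and 1441 CPM in KO libraries, against 1723 and 2768 CPM in WT libraries (-0.45 ± 0.51). Without WT replicate 2 Lyz2 gave 0.00 and Ccr2 -0.07. Cd14, the endotoxin co-receptor, was above WT in both KO libraries (0.88 ± 0.66), and Cd177 below WT in both (-1.02 ± 0.84).

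The 16 nonclassical monocyte genes that were tested, of 18, had a median of 0.15, with -0.14 in experiment 1, 0.59 in experiment 2 and 0.00 without WT replicate 2. Their summed level was 3215 and 3019 CPM in KO libraries, against 3490 and 1815 CPM in WT libraries. Ace, a marker of nonclassical cells, stood at 37.1 and 88.6 CPM in KO libraries, against 40.2 and 27.9 CPM in WT libraries (0.88 ± 0.44), so the genotypes overlapped. Genes of monocyte progenitors and primary granules (15 tested) had a median of -0.40, and -0.11 without WT replicate 2. Prtn3, a granule protease, was above WT in both KO libraries (0.61 ± 0.35), while Clec12a was below WT in both (-0.77 ± 0.39, and -0.29 without WT replicate 2).

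Transcription factors of the myeloid lineage (23 tested) had a median of 0.14, and 0.01 without WT replicate 2. Spi1, which encodes PU.1, stood at 483 and 518 CPM in KO libraries, against 415 and 430 CPM in WT libraries. Its log2 fold change of 0.25 ± 0.25 had an interval of -0.30 to 0.79. Irf8 gave -0.04 ± 0.89 and Cebpb 0.71 ± 0.73, with overlapping libraries for Irf8. Id2, a helix-loop-helix inhibitor that dendritic cells use, gave -0.56 ± 0.33.

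Immediate early and AP-1 genes respond to many stimuli, and their genotype values differed between the experiments. The median over 22 tested genes was 0.22 (0.17 with the gene at 0 in WT set to its bound), with -0.01 in experiment 1, 0.81 in experiment 2 and -0.22 without WT replicate 2. Their summed level was 7329 and 5300 CPM in KO libraries, against 7520 and 2767 CPM in WT libraries. Fos stood at 1676 and 1170 CPM in KO libraries, against 1583 and 462 CPM in WT libraries (0.48 ± 0.80), and Junb at 877 and 709 CPM in KO libraries, against 799 and 309 CPM in WT libraries (0.52 ± 0.39). In both, 1 WT library lay among the KO libraries and WT replicate 2 lay below. For Zfp36 and Klf4, WT replicate 1 lay above both KO libraries and WT replicate 2 below both, and for Dusp1 WT replicate 1 lay between the KO libraries. Zfp36, Klf4 and Dusp1 had log2 fold changes of 0.36 ± 0.47, 0.07 ± 0.63 and 0.74 ± 0.49.

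NF-kB and inflammatory genes (24 tested) had a median of 0.04. Relb, a subunit of the noncanonical NF-kB pathway, stood at 30.2 and 45.2 CPM in KO libraries, against 26.4 and 15.5 CPM in WT libraries (0.84 ± 0.39, unadjusted p = 0.0525, edgeR). Interferon-stimulated genes (37 tested) had a median of -0.15, with 0.12 in experiment 1 and -0.44 in experiment 2. For MHC class II genes (12 tested) the median was 0.02, with 0.23 in experiment 1, -0.34 in experiment 2 and 0.29 without WT replicate 2. At an unadjusted p under 0.05, 1 of the 12 was higher and 1 lower, beside 1.93% and 2.04% of all genes. Ciita, their master regulator, stood at 6.64 and 9.36 CPM in KO libraries, against 4.60 and 3.90 CPM in WT libraries (0.91 ± 0.39, unadjusted p = 0.0429, edgeR). H2-Ob, a chain of the class II modulator H2-O, held 9 and 0 reads in KO libraries, against 12 and 30 reads in WT libraries (-2.61 ± 1.10, unadjusted p = 0.0382, edgeR), and gave -1.48 without WT replicate 2. Cd74, the invariant chain, gave 0.37 ± 0.33 (interval -0.36 to 1.11).

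Cell cycle genes had medians above 0 in both experiments, by a small amount. Over 40 genes the median was 0.21, with 0.12 in experiment 1, 0.28 in experiment 2 and 0.28 without WT replicate 2. Of the 40, 30 were above 0, beside 6955 of all 14034 genes tested. Both KO libraries lay above both WT libraries for 11 of the 40 and below both for 1, beside 13.3% and 10.9% of all genes. None had an unadjusted p under 0.05. Mki67, the proliferation marker, stood at 1056 and 942 CPM in KO libraries, against 593 and 679 CPM in WT libraries (0.65 ± 0.33, unadjusted p = 0.0711, edgeR). Top2a stood at 754 and 890 CPM in KO libraries, against 688 and 804 CPM in WT libraries (0.14 ± 0.33), and the genotypes overlapped. Mcm3, of the replicative helicase, gave 0.71 ± 0.40.

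Glycolysis and unfolded protein response genes also had medians above 0 in both experiments. For glycolysis and hypoxia genes (24 tested) the median was 0.17, and 0.33 without WT replicate 2. The median was 0.21 in experiment 1 and 0.18 in experiment 2. Of the 24, 20 were above 0, with 20 in experiment 1 and 14 in experiment 2. Over all 14034 genes 6955 were above 0, with 6396 in experiment 1 and 7200 in experiment 2. The unfolded protein response genes (22 tested) had a median of 0.18, with 0.22 in experiment 1 and 0.09 in experiment 2. Of the 22, 15 were above 0, with 17 in experiment 1 and 13 in experiment 2. Pdia6, a disulfide isomerase of the endoplasmic reticulum, gave 0.48 ± 0.29. Cholesterol synthesis genes (20 tested) had a median of 0.11, with 12 above 0. Nsdhl, an enzyme of that pathway, stood at 20.2 and 24.3 CPM in KO libraries, against 14.2 and 7.07 CPM in WT libraries (1.06 ± 0.37, unadjusted p = 0.0163, edgeR). Insig1 gave 0.68 ± 0.32 and Idi1 -0.94 ± 0.43.

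**Figure D4:**
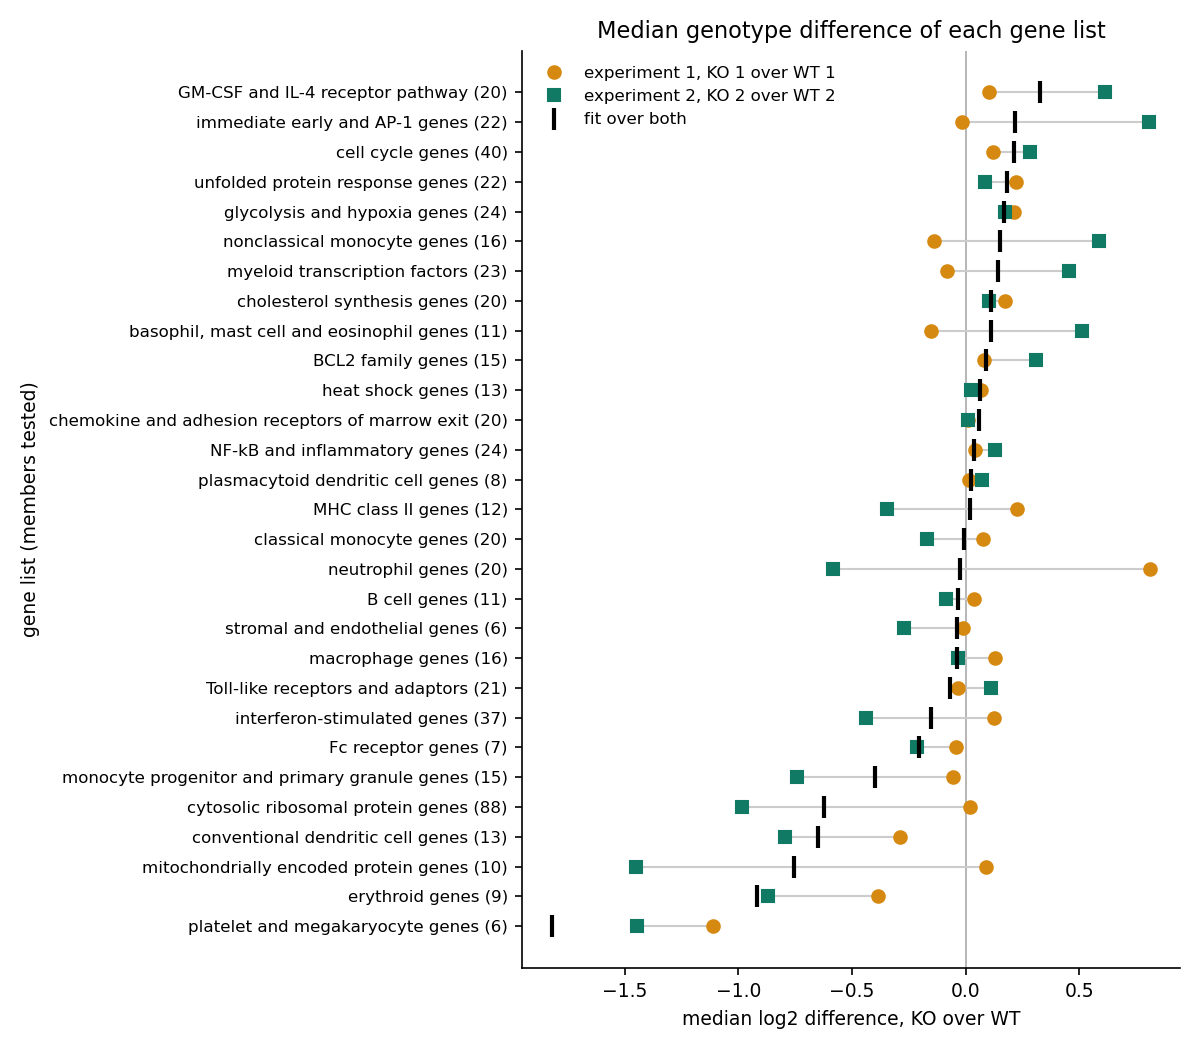
For each gene list (number of members tested in brackets) circles give the median log2 difference of KO 1 over WT 1, squares that of KO 2 over WT 2, and bars the median edgeR log2 fold change over both. Lists whose summed level was under 5 CPM in every library are left out, and the neutrophil, ribosomal protein and mitochondrial lists show the widest gaps between experiments.

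Ribosomal protein genes and mitochondrially encoded protein genes differed between the experiments. Ribosomal protein genes took 4.32% and 5.18% of gene reads in KO libraries, against 4.19% and 8.95% in WT libraries. The 88 tested had a median of 0.02 in experiment 1 and -0.98 in experiment 2, and 0.20 without WT replicate 2. The 10 mitochondrially encoded protein genes had medians of 0.09 and -1.45 in the experiments, and -0.03 without that library. The median of the ribosomal list thus turns round without WT replicate 2, and that of the mitochondrial list comes close to 0.

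The mitochondrial ribosomal RNAs did not share that pattern. mt-Rnr2, the large-subunit RNA, stood at 492 and 649 CPM in KO libraries, against 2433 and 1887 CPM in WT libraries. Its log2 fold change was -1.92 ± 0.45 (adjusted p = 0.998, edgeR), and -2.09 without WT replicate 2. mt-Rnr1, the small-subunit RNA, stood at 235 and 258 CPM in KO libraries, against 773 and 850 CPM in WT libraries, a log2 fold change of -1.72 ± 0.42. Both RNAs were lower in both KO libraries than in both WT libraries, with a log2 ratio of -1.72 in each experiment for mt-Rnr1. Over the 13 alternatives mt-Rnr2 passed in 3 (DESeq2 adjusted p = 0.0298; range 0.0047 to 1) and mt-Rnr1 in 2 (range 0.0138 to 1). Both genes were chosen after their values were seen. By mean level, mt-Rnr2, Lars2, mt-Rnr1 and Mir6236 led the 17 genes at least 2-fold lower in KO in both experiments. The log2 ratios were -1.25 and -1.08 for Lars2 and -1.27 and -1.24 for Mir6236. The protocols in the labels describe capture of polyadenylated RNA, and how much ribosomal RNA each capture carried over was not tested.

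Markers of other marrow cells were followed beside these values. The summed level of 20 neutrophil genes was 3016 and 2527 CPM in KO libraries, against 1949 and 5930 CPM in WT libraries. Their median log2 fold change was -0.02, with 0.81 in experiment 1, -0.58 in experiment 2 and 0.85 without WT replicate 2. Of the 20, 8 were above 0, with 18 in experiment 1 and 4 in experiment 2. S100a8 stood at 387 and 324 CPM in KO libraries, against 207 and 1185 CPM in WT libraries (-0.97 ± 0.77), and S100a9 at 584 and 401 CPM in KO libraries, against 252 and 1608 CPM in WT libraries (-0.92 ± 0.81). Without WT replicate 2 both turned round, to 0.78 and 0.97. Monocytes also express S100a8 and S100a9. At an unadjusted p under 0.05, 1 of the 20 was higher and 0 lower, beside 1.93% and 2.04% of all genes. That gene was Mmp9, a neutrophil gelatinase, which gave 1.67 ± 0.70 (unadjusted p = 0.0364, edgeR), with both KO libraries above WT. The part of neutrophil RNA in the genotype values was not tested.

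Platelet and erythroid genes, most of them at low levels, had negative medians. The 6 tested platelet and megakaryocyte genes, of 11, summed to 3.0 and 5.89 CPM in KO libraries, against 15.0 and 18.2 CPM in WT libraries, with a median of -1.82. The erythroid median was -0.92, and -0.19 without WT replicate 2. Pf4, a platelet chemokine, held 1 read in each KO library, against 22 and 23 reads in WT libraries (0.0714 and 0.0709 CPM against 1.69 and 2.43 CPM). Itga2b, the platelet integrin, gave -1.99 ± 0.82 (unadjusted p = 0.0341, edgeR). The 9 erythroid genes summed to 76.3 and 47.8 CPM in KO libraries, against 86.7 and 189 CPM in WT libraries. Hbb-bs and Hbb-bt, the adult beta-globins, gave -1.66 ± 0.75 and -1.94 ± 0.80, and -0.68 and -0.97 without WT replicate 2.

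The B cell list (11 of 15 tested) summed to 481 and 436 CPM in KO libraries, against 404 and 534 CPM in WT libraries, nearly all of it Ighm. The list's median log2 fold change was -0.03, with 5 of 11 members above 0. Without WT replicate 2 the median was 3.88, the fitted value of Ebf1, which depends on the prior count. Ebf1 held 4 reads in KO replicate 1 and 0 in each other monocyte library. In WT replicate 1, 5 of the 11 genes had 0 reads. At an unadjusted p under 0.05, 2 of the list's genes were higher in KO and 0 lower, beside 1.93% and 2.04% of all genes. Cd79a, a chain of the B cell receptor, held 5 and 31 reads in KO libraries, against 1 and 0 reads in WT libraries. Vpreb1, a surrogate light chain of B cell precursors, held 13 and 20 reads in KO libraries and 0 in both WT libraries, at least 8.81-fold higher in KO by the floor of 3 counts over the WT group. What part B cell RNA has in the genotype values was not tested. T and NK cell genes (6 of 16 tested) summed to 0.143 and 3.69 CPM in KO libraries, against 1.46 and 2.64 CPM in WT libraries. Conventional dendritic cell genes (13 tested) had a median of -0.65, and -0.31 without WT replicate 2. Dpp4 of that list gave -0.81 ± 0.40, and -0.32 without WT replicate 2. Macrophage genes (16 tested) had a median of -0.04. Apoe stood at 183 and 129 CPM in KO libraries, against 316 and 286 CPM in WT libraries (-0.95 ± 0.83), and Mertk, an efferocytosis receptor, at 0.928 and 1.49 CPM in KO libraries, against 0.230 and 0.105 CPM in WT libraries (2.72 ± 0.79, unadjusted p = 0.00564, edgeR). Stromal and endothelial genes (6 of 12 tested) had a median of -0.04, with 3 above 0. Of these, Cxcl12, a chemokine of marrow stroma, stood at 2.29 and 2.77 CPM in KO libraries, against 10.9 and 9.60 CPM in WT libraries (-2.02 ± 1.13). In bulk RNA fewer cells of a type and less RNA per cell cannot be told apart.

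Genes near Nr4a3 on chromosome 4 were examined since a mutant allele can carry flanking sequence of the strain it was made in. Within 10 Mb, 131 genes were tested, of which 0 passed the adjusted threshold. At an unadjusted p under 0.05, 2 were higher in KO and 0 lower, beside 1.93% and 2.04% of all genes. Both KO libraries lay above both WT libraries for 15 of the 131 and below both for 13, beside 13.3% and 10.9% of all genes. The median log2 fold change was -0.01, beside 0 over all genes. Invs, which encodes a protein of the primary cilium, lies about 0.235 Mb from the start of Nr4a3 and stood at 17.7 and 11.4 CPM in KO libraries, against 6.97 and 0.949 CPM in WT libraries (1.85 ± 0.68, unadjusted p = 0.0210, edgeR). Without WT replicate 2 its log2 fold change was 1.07.

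Promoters of genes with an unadjusted p under 0.05 were searched for the NBRE, the letters AAAGGTCA on either strand, in the 250 bases before each RefSeq gene start (GRCm38.p6). The motif was present in 3 of 172 matched genes higher in KO (1.74%) and 2 of 172 lower (1.16%), beside 1.07% of 9769 tested genes and 1.55% of all 27025 promoters. The STAT motif TTCNNNGAA, which reads the same on both strands, was present in 7.56% and 9.88%, beside 7.15% of tested genes. A match is only a match of letters. The promoters of F7, Il21r and Fam133b are shown because they hold the NBRE and overlap no annotated exon; capitals mark the motif, in the order of the gene's strand. They lie at chr8:13025784-13026033 (plus strand), chr7:125603179-125603428 (plus) and chr5:3543583-3543832 (plus).
F7: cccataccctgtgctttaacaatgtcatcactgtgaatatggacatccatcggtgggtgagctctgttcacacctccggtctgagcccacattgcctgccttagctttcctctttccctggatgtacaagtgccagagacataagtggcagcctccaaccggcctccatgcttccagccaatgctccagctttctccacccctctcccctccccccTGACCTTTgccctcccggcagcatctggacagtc
Il21r: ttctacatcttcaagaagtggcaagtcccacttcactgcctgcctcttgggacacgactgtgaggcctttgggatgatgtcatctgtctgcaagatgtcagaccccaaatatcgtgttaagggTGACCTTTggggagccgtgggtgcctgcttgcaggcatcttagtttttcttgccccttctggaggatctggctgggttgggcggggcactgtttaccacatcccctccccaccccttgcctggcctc
Fam133b: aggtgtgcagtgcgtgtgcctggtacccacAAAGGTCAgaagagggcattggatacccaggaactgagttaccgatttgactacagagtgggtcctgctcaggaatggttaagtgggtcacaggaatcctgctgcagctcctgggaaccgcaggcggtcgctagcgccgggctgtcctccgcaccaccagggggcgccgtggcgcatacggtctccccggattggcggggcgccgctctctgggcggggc

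The motif starts 34 bases before the gene start in F7, 127 in Il21r and 220 in Fam133b. Il21r, a cytokine receptor that signals through the gamma chain, stood at 3.21 and 4.11 CPM in KO libraries, against 0.536 and 1.27 CPM in WT libraries (2.06 ± 0.47, unadjusted p = 0.00126, edgeR). F7, coagulation factor VII, gave 1.57 ± 0.69 (unadjusted p = 0.0441, edgeR), and Fam133b -0.95 ± 0.35 (unadjusted p = 0.0200, edgeR). Fam133b gave -0.50 without WT replicate 2, and F7 ran from 0.50 without KO replicate 2 to 2.20 without KO replicate 1. The libraries did not overlap between genotypes for any of the 3 genes, which a choice at an unadjusted p under 0.05 favours. None passed the adjusted threshold.

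Values before culture were set beside those of the cultured libraries. Of the 10 named genes higher in KO, 6 were higher in all 4 day 1 libraries than in all 4 monocyte libraries, and of the 10 lower genes 1 was, beside 19.6% of all genes of at least 5 CPM. At day 1, KO over WT was -0.24 ± 0.34 for Ier3, 0.09 ± 0.30 for Bhlhe40 and -0.32 ± 0.23 for Pde4b, and at day 2 it was 0.64 ± 0.35, -0.34 ± 0.30 and -0.39 ± 0.23. The difference between stages was tested as an interaction. For day 1 minus monocytes edgeR called 0 genes higher and 0 lower (0% each), with 217 (1.55%) and 183 (1.3%) at an unadjusted p under 0.05. Among named-rule genes averaging at least 5 CPM over the libraries compared, Ier3, Pde4b, Il21r and Traf1 were among the 6 with the smallest p. The interaction subtracts the monocyte values by which these genes were picked, which favours this rank.

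For day 2 minus monocytes, edgeR called 0 genes higher and 4 lower (0.0285%). At an unadjusted p under 0.05, 150 were higher (1.07%) and 328 lower (2.34%). The 4 genes were Traf1, Scd1, Atmin and Slc4a8. All 4 were lower in both KO day 2 libraries than in both WT ones. Atmin, which encodes a partner of the kinase ATM, stood at 53.9 and 48.7 CPM in KO monocytes, against 39.8 and 29.4 CPM in WT monocytes, and at 42.9 and 37.5 CPM in KO day 2 cells, against 213 and 195 CPM in WT day 2 cells. Slc4a8, a bicarbonate transporter, stood at 3.43 and 1.49 CPM in KO monocytes, against 0.613 and 1.48 CPM in WT monocytes, level in experiment 2, and at 0.500 and 0.327 CPM in KO day 2 cells, against 97.3 and 89.5 CPM in WT day 2 cells. For Atmin and Slc4a8 the KO over WT value was larger in size at day 2 (-2.35 and -7.86) than in monocytes (0.57 and 1.27). For Traf1 it was larger in monocytes, at 3.08, against -0.71 at day 2. For Scd1 the fitted 6.33 in monocytes depends on the prior count, so its size cannot be ranked against -3.07 at day 2. The monocyte values of Traf1 and Scd1 rest on at most 30 reads a library. At day 2 edgeR called 0 genes higher and 14 lower in KO (0.0998%), with 2.55% lower at an unadjusted p under 0.05. The day 2 libraries carry dates of their own, so stage and date cannot be told apart, and replicate 1 of day 2 held Xist in both genotypes (794 CPM in KO and 885 CPM in WT), unlike the monocyte libraries. The monocyte values of the 4 genes had adjusted p of 0.155 (Traf1), 0.810 (Scd1) and 0.998 (Atmin and Slc4a8) in edgeR.

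**Figure D5:**
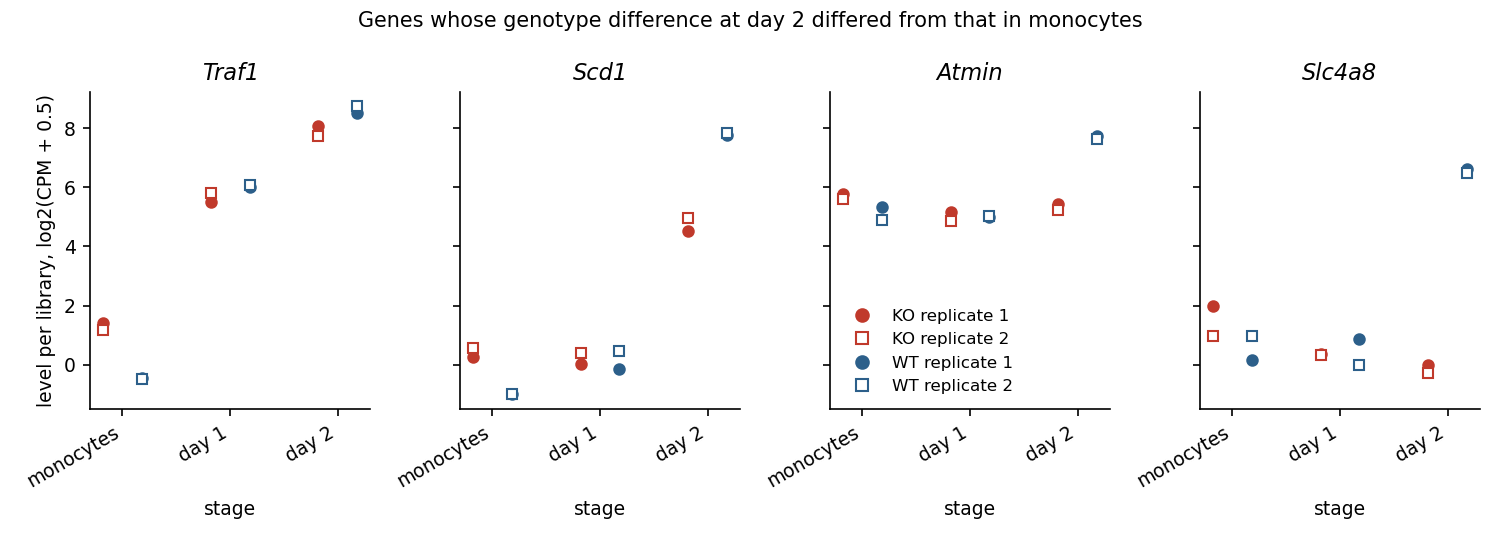
Points give log2(CPM + 0.5) in each library for the 4 genes at each stage, KO in red left of WT in blue, filled circles for replicate 1 and open squares for replicate 2. KO lies above or level with WT in monocytes and below WT at day 2 in every one of the 4 genes.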

How the data were processed

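Poly(A) RNA of sorted monocytes was sequenced after stranded library preparation, per the labels' protocols. Reads went through Trimmomatic 0.35 and STAR 2.5.1b on GRCm38, per the submitters' processing notes, which name no annotation release. The authors deposited whole-number read counts per gene, 1 file per library, with no normalization, and the reverse-stranded counts (column 4) were used. Lines that name no gene held 16.2% to 24.4% of reads in the monocyte libraries and were left out. Of 47643 gene IDs, 47224 matched a symbol in GENCODE M21 (GRCm38), and promoter sequences came from RefSeq (GRCm38.p6). Reads that align to several places are outside the gene counts, which leaves globins, ribosomal proteins and other genes with close copies uncertain.

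The test was that of edgeR 4.0.16 under R 4.3.3 (TMM, filterByExpr, robust quasi-likelihood), with 1 mean per group over all 12 libraries (6 residual degrees of freedom, biological coefficient of variation 0.393), two-sided, with Benjamini-Hochberg adjustment over 14034 genes. Each SE was derived as the size of the log2 fold change over the square root of the F statistic. Intervals are at 95%, from that SE and the t distribution. These derived values are unreliable where a group has 0 reads. Ratios within an experiment used an offset of 0.5 CPM, and list medians were taken over tested members of 31 lists with no test of a list. Alternatives were RLE, no filter, DESeq2 1.42.0, monocyte libraries only, unstranded counts, 2 replicate blocks and leaving out libraries. The scripts were tested on simulated data.

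The members, lists and tests were chosen with earlier results of these data known. Named genes are the 10 of smallest p in each direction among those averaging 5 CPM or more whose direction was shared by the experiments, the 3 NR4A genes, up to 4 list members by p and 4 by level, the 10 most abundant genes and, for each interaction, the 6 with the smallest adjusted p. The 6 genes of each interaction averaged 5 CPM or more over the libraries compared. Predicted, clone-named and Rik genes, pseudogenes and receptor segments were left out, as were mitochondrial genes from the lists by p and by level. Not all are printed, and genes outside the rule (among them Traf1, Id3, Il21r, mt-Rnr1, mt-Rnr2, Invs, F7, Fam133b, Igkc and Lars2) were chosen after their values were seen. One gene's result among the neighbours of Nr4a3 is not reported here.

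Same-numbered libraries carry one date in the deposited names. Deviations from the group means correlated across genes between same-numbered KO and WT libraries with r = 0.24 for monocytes, 0.19 for day 1 and 0.66 for day 2. No pair of monocyte libraries agreed within sampling noise (chi-square per degree of freedom at least 17.2).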

Additional observations from a re-analysis of the deposited data

Results flagged for a closer look

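Every result here was singled out because the genotype difference at day 2 differed from that in sorted monocytes in the edgeR interaction test. The difference of the differences (day 2 minus monocytes, KO over WT, log2) was -3.80 for Traf1 (± 0.47 SE, adjusted p = 0.0266), with 267 and 213 CPM in KO day 2 cells, against 362 and 425 CPM in WT day 2 cells. For Scd1 it was -9.40 ± 0.97 (edgeR adjusted p = 0.0195), with 22.3 and 30.5 CPM in KO day 2 cells, against 218 and 228 CPM in WT day 2 cells. That fitted value depends on the prior count, since WT monocytes held 0 reads of Scd1. For Atmin it was -2.91 ± 0.36 (edgeR adjusted p = 0.0266) and for Slc4a8 -9.12 ± 0.87 (edgeR adjusted p = 0.00925). Over the alternatives run for this contrast the adjusted p ran from 0.0269 to 0.288 for Traf1 and from 0.00705 to 0.149 for Scd1. It ran from 0.00916 to 0.389 for Atmin and from 0.00705 to 0.0584 for Slc4a8. Fits that left out 1 library kept the call of Traf1 and of Atmin only without WT monocytes replicate 1. The call of Scd1 was lost without either KO monocyte library or any day 2 library, and that of Slc4a8 without either KO day 2 library, where its edgeR adjusted p was 0.0584 and 0.0567.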

How the results depend on the processing

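The count of 0 genes higher and 0 lower in KO monocytes was also given by RLE normalization, unstranded counts, the 4 monocyte libraries alone, the replicate block by experiment, and the fits without KO monocytes replicate 1, KO monocytes replicate 2, WT monocytes replicate 2 or KO day 1 replicate 1. It was given too without WT monocytes replicate 2 and KO day 1 replicate 1 together, an alternative chosen after seeing the data. The monocyte libraries alone gave 55 higher and 70 lower of 12101 genes at an unadjusted p under 0.05 in edgeR. The main fit over all 12 libraries gave 271 and 286 of 14034. With no low-count filter 22 were higher and 18 lower, with DESeq2 2 and 1, and with the replicate block by number on the monocyte libraries alone 2 and 3. Leaving out 1 library gave 0 to 123 higher and 0 to 14 lower, both highest without WT monocytes replicate 1, when WT replicate 2 stood alone for its group and was assumed to vary like the other groups. The cause was not tested. For the day 2 minus monocytes difference the 4 lower genes became 7 with the replicate block by experiment, and 0 to 58 when 1 library was left out, 58 without WT monocytes replicate 1. For day 1 minus monocytes every fit gave 0 and 0. Of 1053 fold changes under 13 alternatives for 81 genes followed across them, 30 changed sign, 25 of them for genes whose own value was below its SE. Leaving out 1 library gave -0.0078 to 1.39 for Junb, -1.71 to 0.78 for S100a8 and -1.68 to 0.97 for S100a9, where the turn came with WT monocytes replicate 2 left out and the other end with WT monocytes replicate 1 left out. With KO day 1 replicate 1 removed beside WT monocytes replicate 2, S100a8 was 0.79 and S100a9 0.98. With 2 libraries a group, the median interval half-width was 0.80 (log2) for genes of at least 5 CPM, and genes under about 1 CPM rest on few reads.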

Other observations

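Some lists and single genes not described in full above are given as values. Heat shock genes (13 tested) had a median log2 fold change of 0.07 in KO over WT monocytes, Toll-like receptors and adaptors (21) -0.07, Fc receptor genes (7) -0.21 and BCL2 family genes (15) 0.09, beside 0 for all genes. The chemokine and adhesion receptors used to leave the marrow (20) had a median of 0.06, or 0.03 with the gene at 0 in WT set to its bound. Plasmacytoid dendritic cell genes (8) had 0.03 and basophil, mast cell and eosinophil genes (11) 0.11. Igkc, the kappa light chain constant gene, stood at 6.86 and 24.5 CPM in KO libraries, against 1.46 and 6.01 CPM in WT libraries, higher in KO within each experiment while replicate 2 was above replicate 1 in each genotype. Klrd1, an NK cell receptor chain, held 0 reads in both KO libraries and 7 and 11 reads in WT libraries. It was at least 7.95-fold lower in KO, taking 3 counts over the KO group as the floor. Of the T and NK cell list to which it belongs, 3 of 6 tested genes were above 0, with 0 in experiment 1 and 3 in experiment 2. The medians of this list were -0.27 in experiment 1 and 0.68 in experiment 2. That list's median log2 fold change was 1.31, or 0.78 with genes at 0 in a group set to their bound. Lars2, the mitochondrial leucyl-tRNA synthetase gene, stood at 272 and 895 CPM in KO libraries, against 646 and 1888 CPM in WT libraries, lower in KO within each experiment. It was among the 17 genes at least 2-fold lower in both experiments, as were mt-Rnr1 and mt-Rnr2. What part ribosomal RNA has in its reads was not tested.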
